A study of Mus musculus with 3 samples.

Results

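The myosin genes of mouse melan-a cells, Myo5a left aside, were measured by RNA-seq. They were chosen by symbol alone. The rule took genes named Myo, Myh or Myl followed by a number and at most 1 letter of a family series. It used no expression value, but it was set with earlier results of these data known. The files held 49 such genes among 22698. Melan-a is an immortalized melanocyte line from mice of the C57BL/6J strain. The cells are labelled as derived from Ink4a-ARF-/- animals, which lack the tumour suppressors of that locus. They were untreated and grew in 10% fetal bovine serum with 200 nM 12-O-tetradecanoylphorbol 13-acetate, an activator of protein kinase C, and 200 pM cholera toxin, which raises cyclic AMP. RNA from 3 samples of this 1 line, labelled 1, 3 and 4, was sequenced, and no label says whether they came from separate cultures. All values below therefore describe 1 condition, the SD is the spread between these 3 samples, which may be technical, and no groups were compared.

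Myosins are motor proteins that pull on actin filaments. Conventional myosin II is built from a pair of heavy chains, which carry the motor and a long coiled-coil tail, and from essential and regulatory light chains that wrap around the neck of each motor. Phosphorylation of the regulatory light chain switches the non-muscle form on, and sets of paralogous chains serve striated muscle, smooth muscle and all other cells. The unconventional myosins have other tails and carry, tether or bend membranes. In melanocytes the best known of them, Myo5a, holds pigment granules in the cell periphery.

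Expression was given by the authors as FPKM, a read count divided by gene length and by library size, which can be set side by side between genes. The estimated library sizes were 53900000, 47100000 and 66100000 reads in replicates 1, 3 and 4. The melanocyte label was checked on 14 markers, of which 12 were at 1 FPKM or more in every replicate. The highest were Tyrp1 at 3144 ± 434 FPKM (SD, n = 3), Dct at 1412 ± 96.3 and Mlana at 578 ± 52.2, while Kit, at 0.68 ± 0.0954, and Trpm1, at 0.587 ± 0.0723, were below 1. Of 34 markers of smooth, skeletal and cardiac muscle, 2 were at 1 FPKM or more in every replicate and 7 were listed at 0 in all of them. These 2 were Smtn, at 35.6 ± 5.14 FPKM, and Tnnt2, at 29.9 ± 2.2. Of all genes in the files, 44.1% reached 1 FPKM in every replicate and 31.4% were listed at 0 in all. The count of muscle markers at 0 was thus not above the share of genes at large.

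Promoters of 4 genes, 3 of them expressed and 1 not, are printed here to be read beside the levels. Each window is 300 bases from RefSeq on the GRCm38.p6 build, from 250 bases before to 50 after an annotated transcript start, 5′ to 3′ on the strand of the gene. Myh9 (chr15:77842126-77842425, minus strand) and Myl12b (chr17:70990467-70990766, minus strand) are the highest heavy chain gene and a regulatory light chain gene of nearly the same level. Myl9 (chr2:156775214-156775513, plus strand) is the regulatory light chain gene best known from smooth muscle, and Myh4 (chr11:67237562-67237861, plus strand) encodes a fast skeletal muscle heavy chain and was listed at 0. Capitals mark GCCNNNGGC, a consensus of the TFAP2 factors that the study is about, in Myh9 and Myl12b, and a CArG box, the element known for binding serum response factor, in Myl9 and Myh4.
Myh9: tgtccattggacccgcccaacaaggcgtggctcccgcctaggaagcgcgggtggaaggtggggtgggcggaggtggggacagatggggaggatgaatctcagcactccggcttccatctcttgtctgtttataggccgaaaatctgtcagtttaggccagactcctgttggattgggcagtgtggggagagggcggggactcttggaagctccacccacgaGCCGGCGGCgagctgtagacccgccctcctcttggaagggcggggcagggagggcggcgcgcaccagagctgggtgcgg
Myl12b: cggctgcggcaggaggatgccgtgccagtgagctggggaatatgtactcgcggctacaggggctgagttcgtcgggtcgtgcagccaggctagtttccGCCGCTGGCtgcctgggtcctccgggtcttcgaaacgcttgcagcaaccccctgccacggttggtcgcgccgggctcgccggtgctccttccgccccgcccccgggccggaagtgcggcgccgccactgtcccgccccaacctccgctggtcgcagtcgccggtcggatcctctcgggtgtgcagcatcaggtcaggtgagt
Myl9: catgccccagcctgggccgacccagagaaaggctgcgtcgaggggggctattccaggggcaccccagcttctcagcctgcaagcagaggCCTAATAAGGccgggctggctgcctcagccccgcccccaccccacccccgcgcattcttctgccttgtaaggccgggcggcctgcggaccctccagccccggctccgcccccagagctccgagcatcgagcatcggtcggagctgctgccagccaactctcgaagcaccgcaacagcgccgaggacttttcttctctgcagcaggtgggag
Myh4: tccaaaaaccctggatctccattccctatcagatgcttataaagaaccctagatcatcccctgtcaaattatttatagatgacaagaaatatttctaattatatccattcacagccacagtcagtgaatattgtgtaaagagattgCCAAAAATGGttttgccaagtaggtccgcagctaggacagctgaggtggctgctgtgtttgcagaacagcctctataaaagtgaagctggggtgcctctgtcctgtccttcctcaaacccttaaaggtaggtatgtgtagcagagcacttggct
The marked letters began 29 bases before the start in Myh9, 152 in Myl12b, 161 in Myl9 and 104 in Myh4. The Myh4 window held 1 CpG dinucleotide and was 43.0% GC, against 19 CpGs and 64.7% GC in Myh9, 33 and 70.0% in Myl12b and 20 and 68.3% in Myl9.

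Of the 49 genes, 18 reached 1 FPKM in every replicate, which is 36.7% of them against 44.1% of all genes in the files. A further 14 (28.6%) were listed at 0 in every replicate, against 31.4% of all genes, and 17 lay between. Both shares were near those of genes at large. At the top, 5 of them (10.2%) were among the 1000 genes of highest mean, against 4.41% of all genes, and 4 of these 5 are chains of non-muscle myosin II. The median of the 49 means was 0.0333 FPKM, below the 0.277 of all genes. No myosin gene had a mean between 0.663 FPKM, that of Myl4, and 1.87 FPKM, that of Myh10, so that the threshold of 1 FPKM fell into a gap. In bulk RNA a low value in all cells and a high value in few of them cannot be told apart.

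**Figure D1:**
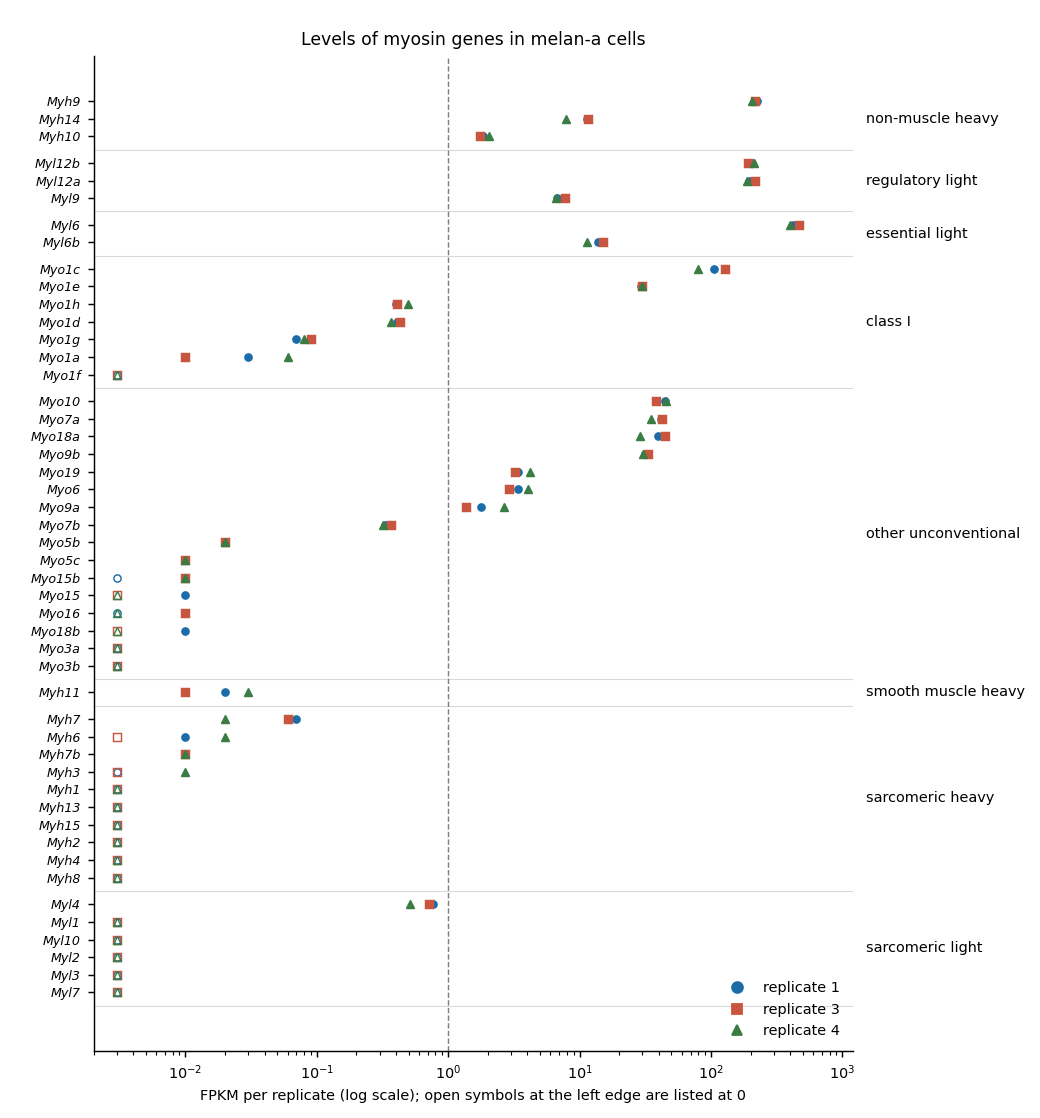
Levels of the myosin genes by class, 1 gene left out, as FPKM on a log axis, with 1 symbol for each of the 3 replicates and open symbols at the left for values listed at 0; the dashed line is 1 FPKM. All 8 non-muscle chains lie to the right of the line, and none of the 16 sarcomeric genes does.

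Of the 3 non-muscle heavy chains, Myh9, which encodes the heavy chain of non-muscle myosin IIA (chr15:77591017-77672605, minus strand, mm9), was by far the highest. The values were 223, 216 and 205 FPKM in replicates 1, 3 and 4 (214 ± 9.39, SD, n = 3), rank 224 of all genes. Myh14 (chr7:51861173-51926213, minus strand), the heavy chain of myosin IIC, was at 11.3, 11.5 and 7.83 FPKM (10.2 ± 2.08). Myh10 (chr11:68505061-68630134, plus strand), the heavy chain of myosin IIB, was at 1.83, 1.75 and 2.03 FPKM (1.87 ± 0.144). The order of these 3 genes was the same in each replicate and their values did not overlap. Myh9 made up 94.7 ± 0.638% of the FPKM of the 3 genes, between 94.2% in replicate 3 and 95.4% in replicate 4. It stood 21.5 ± 4.03 times above Myh14 and 115 ± 12.6 times above Myh10, and Myh14 stood 5.55 ± 1.48 times above Myh10. Reads were not counted here but computed from the FPKM, the length of all annotated exons and the estimated library size. By that estimate Myh9 alone, with its long transcript, accounted for 0.277 ± 0.0121% of the reads of a library. All 49 genes together came to 0.689 ± 0.0413%.

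Among the regulatory light chains, Myl12b (chr17:71323260-71340127, minus strand, mm9) and Myl12a (chr17:71342996-71352218, minus strand) were nearly level. Myl12b was at 206, 190 and 212 FPKM in replicates 1, 3 and 4 (203 ± 11.5), and Myl12a at 195, 218 and 189 (200 ± 15.2). Myl12b was the higher one in replicates 1 and 4 and Myl12a in replicate 3, so the pair did not differ beyond its spread. The ratio of Myl12a to Myl12b was 0.994 ± 0.135, with values from 0.89 to 1.15. The pair lies side by side on the same strand, 2868 bp apart. Of repeated sequence there was much, as 31.5% of the 31-base stretches in the exons of Myl12b and 14.5% of those in Myl12a occur more than once in mm9. Whether these repeats lie in the other gene of the pair was not tested. The pair together made up 98.3 ± 0.135% of the regulatory light chain FPKM. Myl9 (chr2:156601156-156607394, plus strand), the form abundant in smooth muscle, was at 6.73, 7.76 and 6.61 FPKM (7.03 ± 0.632).

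The essential light chains showed the same one-sided division. Myl6 (chr10:127927916-127930931, minus strand, mm9), the essential light chain of non-muscle and smooth muscle myosin, was the highest of all 49 genes, at 421, 468 and 400 FPKM in replicates 1, 3 and 4 (430 ± 34.6), rank 95 of all genes. Myl6b (chr10:127931213-127935741, minus strand), known from slow muscle and from non-muscle tissue, was at 13.9, 15.1 and 11.4 FPKM (13.5 ± 1.91). The genes are 281 bp apart on the same strand, and the upstream one, Myl6b, was 32.2 ± 2.65 times lower than Myl6. Myl6 made up 97 ± 0.232% of the pair. Its level needs care, since 89.1% of the 31-base stretches in its exons occur more than once in the genome, against 4.2% in Myl6b, and how reads that map to several places were counted is not given in the sources used here.

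The light chain genes together exceeded the heavy chain genes. Their summed FPKM was 3.77 ± 0.184 times that of the 3 heavy chains, with 3.57, 3.92 and 3.82 in replicates 1, 3 and 4. Essential light chains stood 1.96 ± 0.137 times and regulatory light chains 1.81 ± 0.0891 times above the heavy chains, and essential over regulatory was 1.08 ± 0.0777. The per-length scale matters for this: of all myosin FPKM, essential light chains held 31.8 ± 1.0%, regulatory light chains 29.5 ± 1.38% and non-muscle heavy chains 16.3 ± 0.641%. Of the reads on myosin genes, estimated from FPKM and the length of all annotated exons, the order was turned. The shares were then 4.34 ± 0.185%, 14.5 ± 0.647% and 41.6 ± 1.25%. These are ratios of RNA and no protein was measured.

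**Figure D2:**
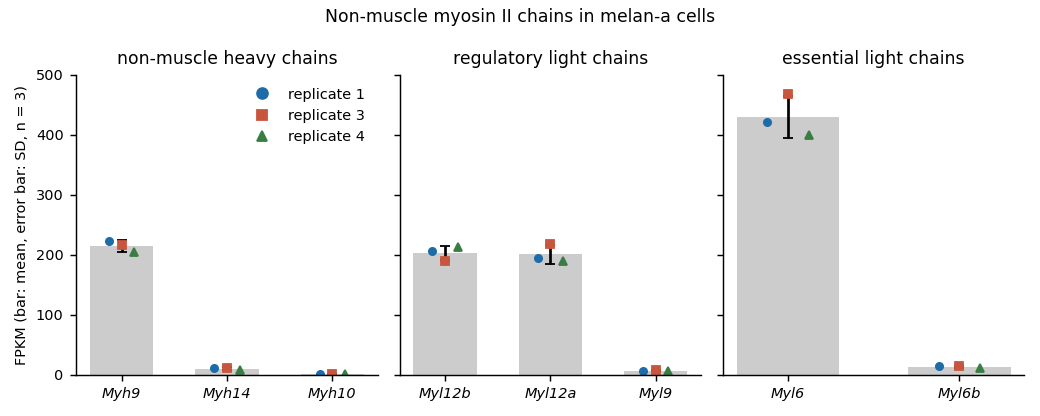
FPKM of the 8 non-muscle myosin II chain genes, in panels for heavy, regulatory light and essential light chains; bars are means, error bars the SD and symbols the 3 replicates. In the heavy chain and essential light chain panels 1 gene stands above the rest, and in the regulatory panel Myl12b and Myl12a are level at 203 and 200 FPKM.

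The length by which the authors divided is a limit on these levels. The length they used is not given in the sources used here, and it could be checked well only for genes with 1 annotated transcript. When the reads were divided by the length of the longest protein-coding transcript instead, a setting chosen after seeing the data, Myh9 came to 373 ± 16.3 FPKM, since its annotated exons cover 12928 bases and its longest coding transcript 7433. Myl12a then came to 331 ± 25.0 and Myl12b to 277 ± 15.7, a ratio of 1.2 ± 0.163, and Myl6 stayed at 430 ± 34.6, because only 1 transcript is annotated. Under this length the light chains were 2.74 times the heavy chains instead of 3.77 times, and Myh9 still held 96.4% of the heavy chain FPKM. Myo18a came to 74.4 ± 15.9 FPKM and Myo1c to 147 ± 33.0.

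**Figure D3:**
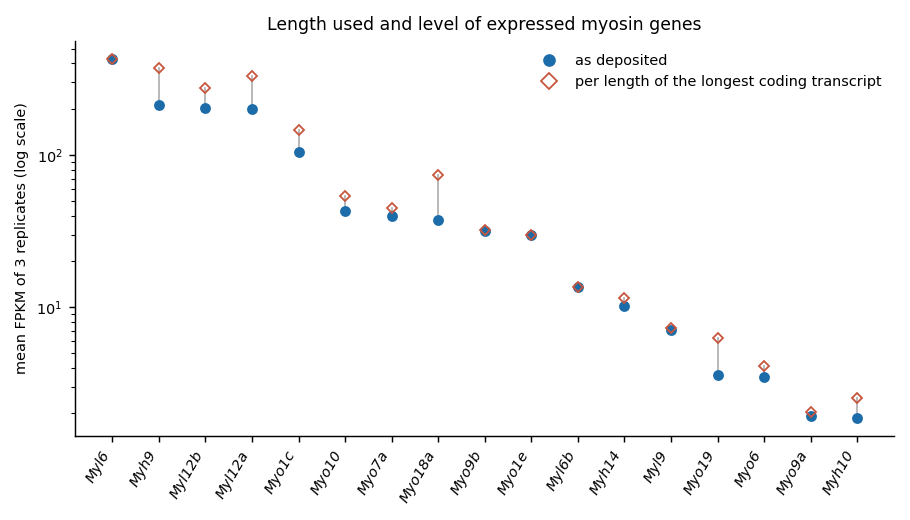
Mean FPKM of 17 expressed genes on a log axis, as deposited (filled circles) and with reads divided by the length of the longest coding transcript (open diamonds). Myh9 moves from 214 to 373 and Myo18a from 37.6 to 74.4, while Myl6 and Myl6b do not move.

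The 24 unconventional myosins, which include the class I genes, summed to 311 ± 29.2 FPKM, and 10 of them reached 1 FPKM in every replicate, a share near the 44.1% of all genes. The sum was concentrated in 6 genes, Myo1c, Myo10, Myo7a, Myo18a, Myo9b and Myo1e, which held 91.8 ± 2.32% of it. Class I, the single-headed membrane-binding myosins, held 48.0 ± 2.24%, from 46.1% in replicate 4 to 50.5% in replicate 3.

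Myo1c (chr11:75464006-75488134, plus strand, mm9), which tethers membranes to cortical actin and is known from glucose transporter traffic, led the class. It was at 106, 127 and 80.02 FPKM in replicates 1, 3 and 4 (104 ± 23.4), rank 554, and made up 33.2 ± 4.5% of the unconventional FPKM. The replicates of Myo1c were far apart relative to those of Myo1e, the class I myosin of endocytic sites (chr9:70055157-70247874, plus strand), which was at 29.4, 30.03 and 29.8 FPKM (29.7 ± 0.301). Their coefficients of variation were 22.5% and 1.01%. Several class I genes were below 1 FPKM. Myo1h averaged 0.433 FPKM and Myo1d 0.403, Myo1g, known from lymphocytes, was at 0.08 and Myo1a, known from intestinal brush border, at 0.0333. Myo1f, a myosin of immune cells, was listed at 0 in all replicates. The exons of Myo1h overlap those of Kctd10 on the other strand over 19.6% of their length, and Kctd10 was at 42.3 ± 7.85 FPKM. The kit keeps strand, but whether counting used it is not given in the sources used here, and the part of Kctd10 in the value was not tested.

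Myo10, Myo7a, Myo18a and Myo9b followed in a narrow range. Myo10 (chr15:25552280-25743428, plus strand), the motor of filopodial tips, was at 44.7, 38.4 and 45.6 FPKM in replicates 1, 3 and 4 (42.9 ± 3.93). Myo7a (chr7:105199570-105268034, minus strand), known from inner ear hair cells and from pigment granules of the retinal pigment epithelium, was at 41.7, 42.7 and 34.8 FPKM (39.7 ± 4.33). Myo18a (chr11:77576748-77679482, plus strand), known from the Golgi, was at 39.7, 44.5 and 28.8 FPKM (37.6 ± 8.04). For Myo9b (chr8:73796613-73884611, plus strand), whose tail holds a GTPase-activating domain, the values were 31.7, 33.3 and 30.1 FPKM (31.7 ± 1.56). None of the steps from Myo10 to Myo7a, from Myo7a to Myo18a and from Myo18a to Myo9b was in the same direction in all replicates, and each was smaller than the SD of its own difference. The step from Myo9b to Myo1e was in the same direction in all 3 replicates, with a mean of 1.93 ± 1.46 FPKM.

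At lower levels stood Myo19, Myo6 and Myo9a. Myo19 (chr11:84693650-84724728, plus strand), a motor of mitochondria, was at 3.38, 3.2 and 4.17 FPKM (3.58 ± 0.516). Its exons overlap Pigw and Znhit3 on the other strand over 5.4% of their length, genes that were at 1.32 ± 0.209 and 5.8 ± 0.392 FPKM. Myo6 (chr9:80012838-80159536, plus strand), the myosin that moves toward the minus end of actin and works in endocytosis, was at 3.4, 2.92 and 4.05 FPKM (3.46 ± 0.567), and could not be set apart from Myo19. Myo9a (chr9:59598703-59776673, plus strand), the paralog of Myo9b, was at 1.77, 1.36 and 2.65 FPKM (1.93 ± 0.659), which overlapped the range of Myh10. The remaining class members were low throughout. Myo7b, known from brush border, averaged 0.34 FPKM and Myo5b 0.02, Myo15b was at 0.01 or less in each replicate, Myo15, Myo16 and Myo18b were each at 0.01 in 1 replicate and listed at 0 in the other two, and Myo3a and Myo3b were listed at 0.

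Myo5a itself was at 22.8, 18.9 and 29.3 FPKM (23.7 ± 5.23), below 6 of the unconventional myosins in replicates 1 and 3 and below 5 of them in replicate 4. This place depends on the length used. Per longest coding transcript Myo5a came to 29.9 FPKM, level with Myo1e at 29.9 and near Myo9b at 31.9. The gene that fell below it in replicate 4 was Myo18a. The exons of Myo5a are 44.8% GC and those of Myo18a 56.5%, and the part of GC content in that change was not tested. Myo5c, a relative of Myo5a that begins 8325 bp from it on chromosome 9, was at 0.01 FPKM in each replicate.

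The full order of the 18 genes by mean had 17 steps, of which 9 held in all replicates and exceeded the SD of the difference. Steps on either side of 1 gene are not reported here. Clear steps were those from Myl6 to Myh9 (2.01-fold, mean difference 215 ± 31.9 FPKM), from Myl12a to Myo1c (1.92-fold, 96.2 ± 11), from Myo1c to Myo10 (2.42-fold, 61.3 ± 27.0) and from Myl9 to Myo19 (1.96-fold, 3.45 ± 1.06). Steps that also held were Myo9b over Myo1e, Myl6b over Myh14, Myh14 over Myl9 and Myo6 over Myo9a. Neighbours that did not differ beyond their spread were Myh9 and Myl12b, Myl12b and Myl12a, Myo10 and Myo7a, Myo7a and Myo18a, Myo18a and Myo9b, Myo19 and Myo6, and Myo9a and Myh10. This order holds for the levels as deposited and changes with the length used. Per longest coding transcript, Myl6 was at 430 and Myh9 at 373 FPKM, and Myl9 at 7.25 and Myo19 at 6.23. Myo18a, at 74.4, then stood above Myo10, at 53.4. The steps under that length were not tested against their spread.

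Most muscle forms were at or near 0, and none of the sarcomeric genes reached 1 FPKM in every replicate. The 10 sarcomeric heavy chains summed to 0.0733 ± 0.0153 FPKM and the 6 sarcomeric light chains to 0.663 ± 0.134, together 0.0527 ± 0.00878% of all myosin FPKM. Myh1, Myh2, Myh4, Myh8, Myh13 and Myh15 were listed at 0 in every replicate, as were the light chains Myl1, Myl2, Myl3, Myl7 and Myl10. Values are rounded to 2 decimals, so a gene listed at 0 was under 0.005 FPKM. Myh7, the slow and cardiac heavy chain, was at 0.07, 0.06 and 0.02 FPKM, and Myh6, its neighbour 3760 bp away, at 0.01, 0 and 0.02. Myh7b was at 0.01 in each replicate and Myh3 at 0.01 in replicate 4 alone. Myh11, the smooth muscle heavy chain, was at 0.02, 0.01 and 0.03 FPKM. Reads on sarcomeric heavy chains could also be lost to repeats, since 40.0% of the 31-base stretches of Myh1, 34.5% of those of Myh2 and 33.0% of those of Myh4 occur more than once in mm9, against 0.3% in Myh15, which was also listed at 0.

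Myl4 is known from atrial and fetal muscle. It was at 0.76, 0.72 and 0.51 FPKM in replicates 1, 3 and 4, or an estimated 190, 157 and 156 reads. Its annotated exons cover 4637 bases and its longest coding transcript 943, and per that length it came to 3.26 FPKM, above the 2.51 of Myh10, and under both lengths it was the highest of the 16 sarcomeric genes chosen by symbol. Mylpf, the regulatory light chain of fast skeletal muscle, whose symbol carries no number, was at a similar level, with 0.84, 0.27 and 0.74 FPKM in replicates 1, 3 and 4 (0.617 ± 0.304), above Myl4 in replicates 1 and 4. With coding transcript lengths the sarcomeric share of myosin FPKM, in which Mylpf is not counted, rose from 0.0527% to 0.178%. Among the 34 muscle markers Smtn, at 35.6 ± 5.14 FPKM, and Tnnt2, at 29.9 ± 2.2 FPKM, were the highest, followed by Tagln at 1.1 ± 0.18. Without Smtn and Tnnt2 the list summed to between 4.03 and 5.0 FPKM per replicate, and Myf5, Myf6, Ttn, Tnni2, Tnnc1, Mybpc1 and Myom2 were listed at 0. The part of other cells in the Myl4 value was not tested.

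The heavy chain genes of skeletal muscle lie together. Myh3, Myh2, Myh1, Myh4, Myh8 and Myh13 occupy 293 kb of chromosome 11 (chr11:66891802-67185088, mm9). Of these 6 genes, 5 were listed at 0 in all replicates, against 31.4% of all genes in the files. The next myosin gene beyond the 6, the expressed Myh10, begins 1320 kb farther on.

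A promoter window was found for 43 of the 49 genes, and none was used here for the others. For each gene the highest CpG count and the highest GC content of its windows were taken, each on its own. The 17 genes at 1 FPKM or more with a window had a median of 20.0 CpGs, with a range of 5 to 37 and a median GC of 65.7%. The 26 genes below 1 FPKM had a median of 5.0 CpGs and 54.2% GC, and 27025 genes of the promoter table had 8.0 and 53.3%. Those 27025 genes were not limited to expressed ones, and the same values for all expressed genes were not computed. The ranges overlapped in both directions. Myo18a, with 5 CpGs, and Myo7a, with 6, were expressed at 37.6 and 39.7 FPKM, and Myl4, with 25, and Myo16, with 23, were not at 1 FPKM. Myl4 was the only sarcomeric gene above 9 CpGs, and it was also the sarcomeric gene with the highest level.

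**Figure D4:**
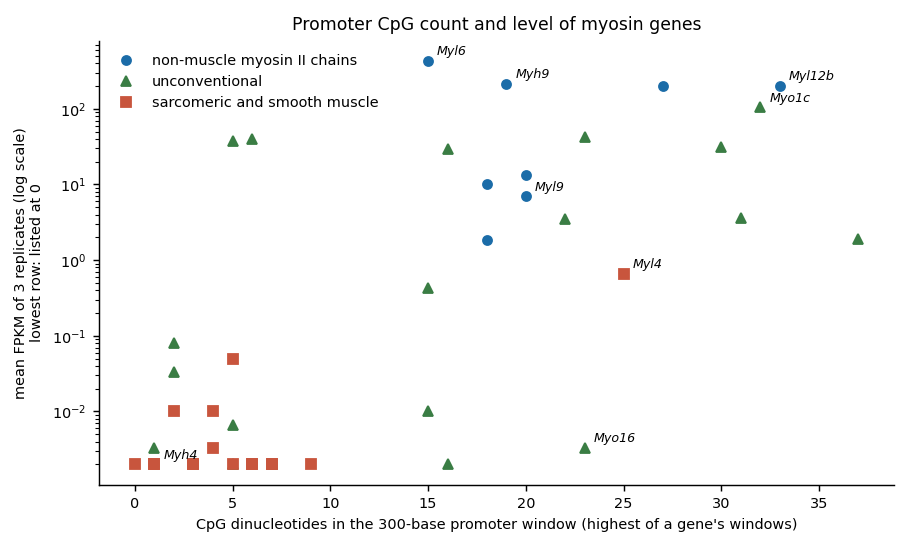
CpG dinucleotides in the promoter window (highest count of a gene's windows) against mean FPKM of 3 replicates on a log axis, for 43 myosin genes in 3 classes; genes listed at 0 are drawn along the bottom. Sarcomeric genes lie at the lower left apart from Myl4 at 25 CpGs, and the non-muscle chains lie between 15 and 33 CpGs.

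The letters GCCNNNGGC, read on both strands, were in at least 1 window of 14 of the 43 genes (32.6%), against 18.5% of all genes of the table. Among the expressed genes they were in 9 of 17 (52.9%), namely Myh9, Myh14, Myl12a, Myl12b, Myo10, Myo19, Myo1c, Myo6 and Myo7a, and among the rest in 5 of 26 (19.2%), namely Myl10, Myl4, Myo15, Myo1h and Myo5c. The share among all expressed genes was not computed, so whether 52.9% is high for expressed genes is not known. Windows of the expressed myosin genes were also richer in GC, as given above, and the part of that in the count was not tested. A CArG box was in 7 of 43 (16.3%), against 1.81% of all genes. These were Myl6, Myl9 and Myo1e among the expressed and Myh13, Myh4, Myl3 and Myl7 among the others, so the box was in windows of genes at 430 FPKM and of genes listed at 0. Of the other letters searched, both known from the factor MITF and its relatives, CATGTG was in windows of Myo7a and Myl2 (4.65% of the 43, against 15.9% of all genes) and CACGTG in those of Myl12a and Myh7b (4.65%, against 8.09%). All windows and motifs were chosen after the levels were seen. A match describes letters in a window and is not evidence of binding, and binding was not analysed here.

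Differences between replicates followed GC content. Across the 18 expressed genes, the log2 ratio of replicate 3 to replicate 4 had a Spearman rho of 0.84 and a Pearson r of 0.86 with the GC content of the exons. Over 9994 genes at 1 FPKM or more these were 0.78 and 0.75. Genes within a sample share library and depth and are not independent replicates, so both are given as descriptions. Myo9a, with 41.7% GC, had a log2 ratio of -0.96, and Myo6, with 43.4%, one of -0.47. At the other end Myh14, with 60.5% GC, had 0.56, Myo1c, with 55.7%, had 0.66 and Myo18a, with 56.5%, had 0.63.

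The order replicate 3 over 1 over 4 was seen in 9 of 18 genes (50%, against 39.5% of all expressed genes), with GC between 51.0% and 60.5%. The reverse order, 4 over 1 over 3, was seen in 7 (38.9%, against 37.2%), with GC between 41.7% and 53.5%. Myh9 and Myo1e had neither order. After the trend of all genes with GC was taken out, the median coefficient of variation of the 18 genes went from 10.0% to 7.09%, and that of all genes from 11.4% to 7.24%. The fit was not the same for each gene. The coefficient of Myo6 went from 16.4% to 1.9% and that of Myh14 from 20.4% to 6.38%, while that of Myo19 went from 14.4% to 22.2% and that of Myo10 from 9.18% to 16.4%. The log2 ratio that remained was -0.6 in Myo19, -0.48 in Myo10 and -0.45 in Myo9a, and on the other side 0.33 in Myo1c and 0.28 in Myo18a.

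**Figure D5:**
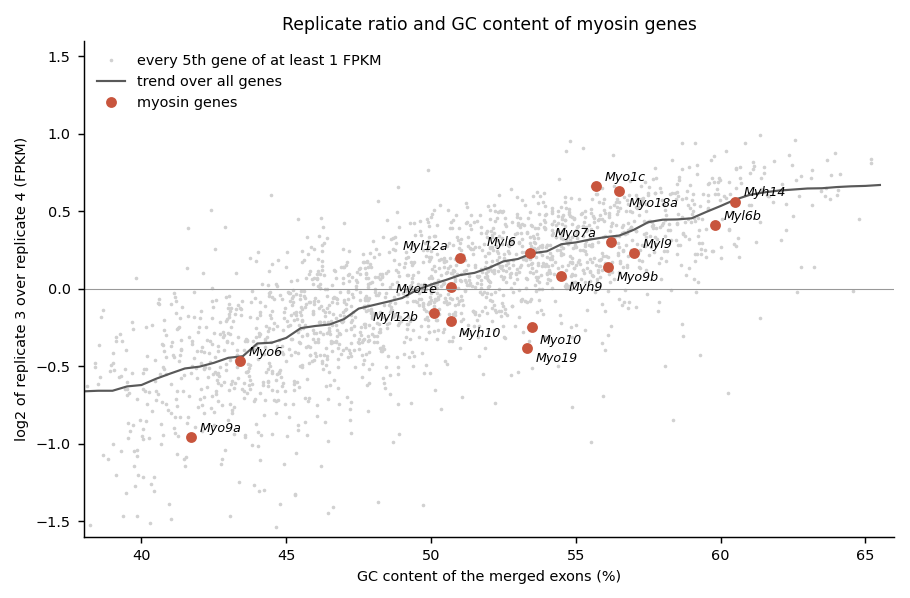
Log2 ratio of replicate 3 to replicate 4 against the GC content of the exons, for 17 expressed myosin genes (labelled points), with a part of all expressed genes in grey and the running median of all expressed genes as a line. The myosin points rise with GC from Myo9a at -0.96 to Myh14 at 0.56, with Myo9a, Myo10 and Myo19 well below the line and Myo1c and Myo18a above it.

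The genes that switch non-muscle myosin II on and off were measured as a list of 24, and 17 of them were at 1 FPKM or more in every replicate, against 44.1% of all genes. The highest were the small GTPases Rhoc, at 597 ± 58.7 FPKM, and Rhoa, at 296 ± 3.42, and S100a4, at 112 ± 1.39, a calcium-binding protein that takes apart filaments of the Myh9 product. Of the kinases of the regulatory light chain, Mylk was at 14.0, 14.8 and 13.9 FPKM (14.3 ± 0.502), while its paralogs Mylk2 and Mylk3, at 0.02 and 0.1, and Mylk4, listed at 0, were low, as were the muscle heavy chains. The kinase Rock2 was at 28.9, 21.0 and 38.8 FPKM (29.6 ± 8.91) and Rock1 at 6.61, 4.39 and 8.78 (6.59 ± 2.2). Both had the order replicate 4 over 1 over 3, as did 37.2% of all genes at 1 FPKM or more in every replicate. Of the phosphatase that reverses the switch, the catalytic subunit Ppp1cb was at 26.9 ± 2.82 FPKM and the targeting subunits Ppp1r12c and Ppp1r12a at 19.1 ± 4.09 and 11.8 ± 3.25.

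Of 10 further genes, for myosin folding, calmodulins and other light chains, Mylpf included, 6 were at 1 FPKM or more in every replicate, against 44.1% of all genes. Calmodulin, which serves as light chain for most unconventional myosins, is encoded by several genes, of which Calm3 was at 272 ± 39.5 FPKM and Calm2 at 268 ± 28.6. The myosin chaperone Unc45a was at 21.0, 24.9 and 16.2 FPKM (20.7 ± 4.37), while its muscle paralog Unc45b was listed at 0 in replicates 1 and 4 and at 0.01 in replicate 3, the same division as between the non-muscle and muscle heavy chains.

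Of 24 genes for cargo and partners of unconventional myosins, 18 were at 1 FPKM or more in every replicate, against 44.1% of all genes. Mlph, the link between Rab27a and Myo5a, was the highest at 198 ± 26.5 FPKM, followed by Gipc1, an adaptor of Myo6, at 86.2 ± 17.6 and Vasp, which Myo10 carries into filopodia, at 75.4 ± 13.9. Optn, another adaptor of Myo6, was at 6.76 ± 0.664 FPKM. Golph3, which binds Myo18a at the Golgi, was at 41.0 ± 1.36 FPKM, beside 37.6 for Myo18a as deposited. Per longest coding transcript Myo18a came to 74.4 FPKM, so the nearness of the 2 values depends on the length used. Partners of Myo7a in the hair cell were low beside Myo7a itself. Cdh23 was at 0.1 ± 0.02 FPKM and Ush1g at 0.0333 ± 0.0153, Pcdh15 was listed at 0, Ush1c was at 0.01 in replicate 3 alone, and Myrip, its link to Rab27a in the retinal pigment epithelium, at 0.01 in replicate 1 alone, while Rab27a was at 19.2 ± 2.01 FPKM.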

How the data were processed

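RNA-seq of 3 samples of untreated melan-a cells was analysed. Expression was deposited as FPKM for 22698 Ensembl genes, scaled between libraries by the authors (TMM) and given to 2 decimals. Per the paper's methods and the submitters' processing notes, which also name edgeR, 10 bases were trimmed, reads were aligned to mm9 with STAR 2.3.0e, reads from rRNA were discarded and htseq-count 0.5.3p3 gave read counts on Ensembl release 67. The conversion to FPKM and its gene lengths are not given in the sources used here. Raw counts were not used here, and with 1 condition nothing was tested.

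Symbols and positions were read from the mm9 gene set of Ensembl 65, which held 22324 of the genes. Myl12a was found through a RefSeq synonym. Library size was the number of reads at which low FPKM of genes with 1 transcript fell on whole reads, from 78, 124 and 52 genes in replicates 1, 3 and 4 (mean distance 0.045, 0.049 and 0.046 reads). For up to 14 short genes with several transcripts the distance was 0.168, 0.118 and 0.126 with merged exons and 0.171, 0.217 and 0.2 with the longest coding transcript. For myosin genes 3 reads in replicate 3 came to 0.00429 to 0.108 FPKM. The GC trend was a running median over 401 genes. The library size estimate and the trend were tested on simulated data.

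Neighbours in order differed where the step had 1 direction in all replicates and a mean above the SD of the difference. Members of at least 1 FPKM in every replicate were named by rule, as were the 3 highest genes of other lists and those set beside a member. The lower members were named after their values were seen. A few items, 1 myosin gene among them, are counted but not reported here. Members and lists were chosen with earlier results of these data known, and Myo15b was added because its symbol matched. Alternatives were other thresholds, the median, rescaling, removal of the GC trend, pseudocounts, each replicate left out and coding length. Python 3.11.15, numpy 2.4.6, pandas 2.3.3, scipy 1.17.1 and matplotlib 3.10.9 were used.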

Additional observations from a re-analysis of the deposited data

How the results depend on the processing

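Lengths of the longest coding transcript moved the Myh9 share of heavy chain FPKM to 96.4%, the share of Myl12a and Myl12b to 98.8%, the ratio of light to heavy chains to 2.74, the ratio of Myl12a to Myl12b to 1.2 and the sarcomeric share to 0.178%. They moved 11 of the 18 levels by more than 1 SD. Rescaling the replicates to 1 common total moved all 18, which followed from the total chosen. It was far above the deposited FPKM sums of 378814, 394507 and 358891 in replicates 1, 3 and 4. Every level was therefore raised, that of Myl6 from 430 to 1137, as by a change of unit. This rescaling cannot show how far the levels depend on processing, and it leaves shares and ratios within a replicate unchanged. Counting genes with at least 3 reads in every replicate gave 28 in place of 18. The rho of the replicate ratio with GC was 0.68 with a pseudocount of 1 over all members above 0 in every replicate and 0.36 with the GC trend removed. That trend was fitted over all genes, so its removal acts on the relation by construction and does not test it. Among the 18 genes a part of the relation was left. For other pairs of replicates the rho ranged from 0.668 without replicate 4 to 0.839 without replicate 3. The other shares and counts moved by less than 1 SD, or by under 1.5 times for counts, under every alternative run, and the median over replicates, the GC trend and leaving out each replicate moved none of the 18 levels by more than 1 SD. No paired analysis was possible because there was 1 group. Depth is an estimate from rounded FPKM, and genes under 0.005 FPKM cannot be told from 0.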
